A study of Arabidopsis thaliana with 30 samples.

Results

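Transcripts of 6 seed storage genes of Arabidopsis thaliana Col-0 were followed from harvest to the young seedling: the oleosin genes OLEO5 and OLEO3, the globulin gene PAP85, and AT1G03890, AT4G36700 and AT2G18540, which are known here by locus and were grouped with the storage globulins when the list was drawn up. The members are all probe sets annotated to exactly 1 of these genes. Each gene had 1 such probe set, so 6 of the 13356 genes that the array annotation names were followed, out of 22746 tested probe sets. OLEO5 was found through its locus, AT3G01570, because the annotation gives no symbol for it. Whole seed was measured on 30 one-colour Affymetrix arrays, 3 in each of 10 groups. In order, they are seed taken fresh at harvest, seed ripened to dryness (0 h), seed stratified for 1, 12 and 48 h at 4 °C in darkness on MS medium, and seed moved after those 48 h to continuous light at 22 °C for 1, 6, 12, 24 and 48 h. All groups are of the same ecotype, without mutation or added agent, from 80 mg of seed each. Stratified seed was also imbibed, and light began together with warmth, so cold, water, time, light and temperature cannot be told apart between those groups.

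A mature seed feeds the seedling from reserves laid down on the mother plant. Globulins and albumins, packed in protein storage vacuoles, supply nitrogen, and oil held in oil bodies supplies carbon. Oleosins are small proteins with a long hydrophobic hairpin that coat the oil bodies and keep them from fusing, while PAP85 belongs to the vicilin-like globulins. Genes of this kind are transcribed during maturation, and the dry seed keeps many of their transcripts until germination.

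Values are deposited probe set intensities on a linear scale. Log2 differences were taken after 16 was added to each intensity, which understates the change of dim genes, and each is given as later minus earlier group with its standard error. A gene counted as called when limma, with adjustment over the whole array, gave an adjusted p under 0.05 and a log2 difference of at least 1 in size. Nothing in the sources used here says whether the 3 replicates of a group were separate cultures, so the p-values reflect only how these samples scatter, which may be technical scatter. With 3 arrays per group the precision of every value is limited. In whole seed, fewer cells of a type and less RNA per cell cannot be told apart.

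Array medians ran from 11.8 to 19.4 and were higher late in the course, with group means of 12.4 in dry seed, 14.1 after 48 h of stratification and 19.1 in the last light group. Replicates correlated at 0.985 or more, and the lowest value was in dry seed. The tissue label was checked on the few markers that a probe set names. Of the seed maturation genes, M17 had 14555 ± 475 and LTI30 12795 ± 799 in dry seed (SD, n = 3). The leaf gene LHCB4.1, of the photosystem II antenna, had 179 ± 28.9 in dry seed. It was lower at 48 h of stratification, 18.7 ± 3.55, and reached 4447 ± 393 at 48 h of light. BAN, a gene of the seed coat, lay between 3.98 and 4.58 in every group mean, and no endosperm marker was named.

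All 6 genes ended lower at 48 h of light than in dry seed, but they left at different times. OLEO5 and PAP85 kept at least 61.9% of their dry seed level through stratification and the first hour of light and were mostly lost between 1 and 12 h of light. AT1G03890, AT4G36700 and AT2G18540 lost most of their level between 12 and 48 h of stratification and again between 1 and 6 h of light. OLEO3 fell in the second part of stratification, stayed between 26.7% and 39.1% of dry seed through 24 h of light and fell again by 48 h. These differences in timing between genes are descriptions of the values and were not themselves tested.

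**Figure D1:**
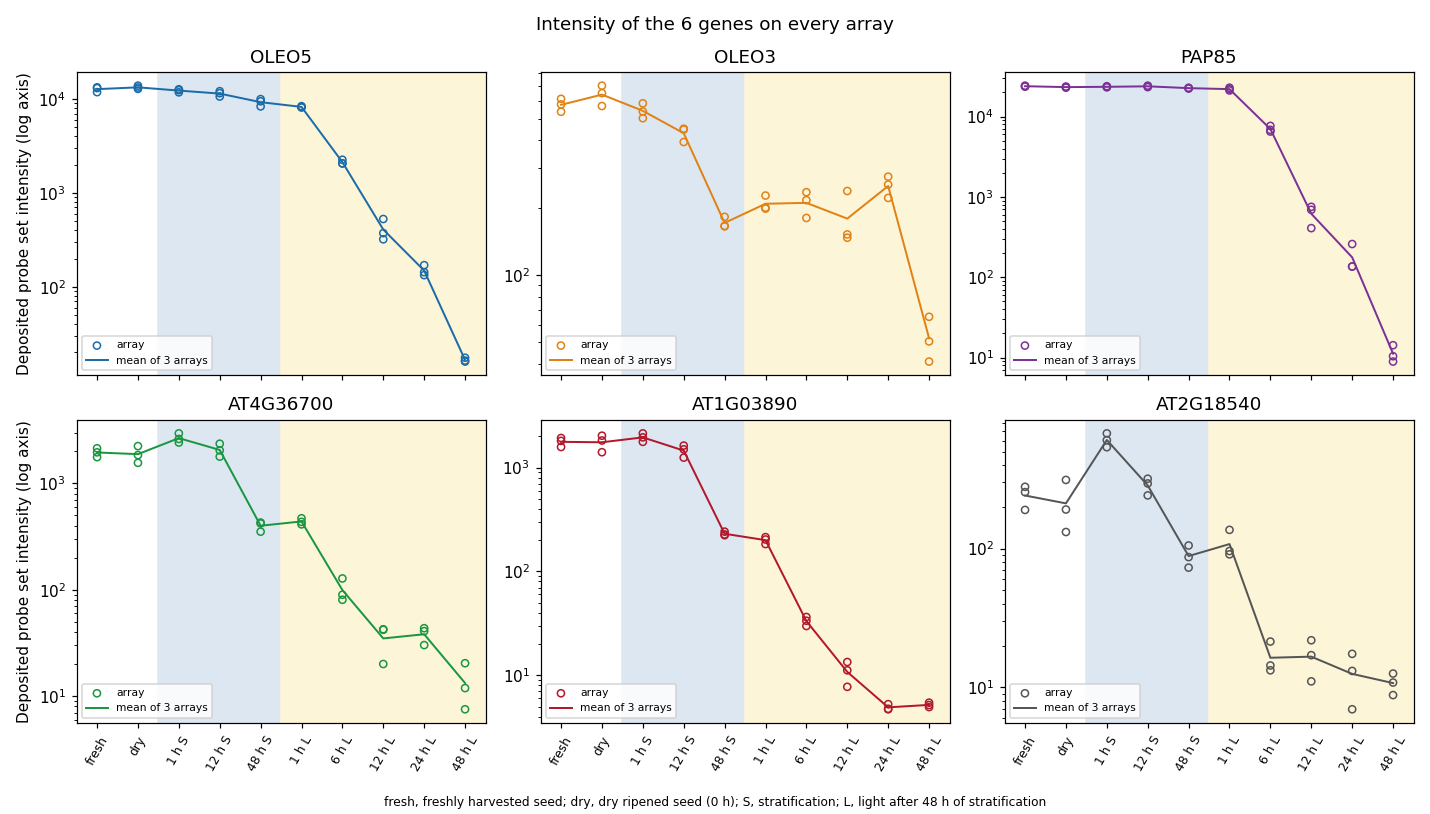
Deposited probe set intensity (log axis) of each of the 6 genes on all 30 arrays, over the 10 groups in order. Open points are arrays, the line joins the means of 3, blue shading marks stratification and yellow shading light. PAP85 stays between 21106 and 24232 through 1 h of light and reaches 8.92 to 14.2 at 48 h of light, whereas OLEO3 stays between 147 and 275 over the light groups up to 24 h.

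OLEO5 kept most of its level through stratification and the first hour of light. Its 3 arrays read 13102, 13358 and 11876.5 fresh from harvest, then 12859, 13921 and 13305.5 in dry seed, and the groups overlapped. During stratification they read 12462, 12735 and 11819 at 1 h, 11574, 10658 and 12155 at 12 h, and 8366, 9482 and 10001 at 48 h. The groups of 1 h and of 48 h lay wholly below the group before them, and 12 h overlapped 1 h. The difference between 48 h and dry seed was -0.53 ± 0.11 (adjusted p = 3.41e-04), short of the size threshold, and the level was 69.5% of that of dry seed.

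After the move to light the OLEO5 arrays read 8414, 8231 and 8152 at 1 h, which overlapped 48 h of stratification. They then read 2062, 2258 and 2069.8 at 6 h, 373, 320.4 and 527 at 12 h, 133, 143 and 169.9 at 24 h, and 16.3, 17.5 and 15.9 at 48 h. No group from 6 h on overlapped the one before it. The fall was -1.95 ± 0.11 from 1 to 6 h, -2.37 ± 0.11 from 6 to 12 h, -1.34 ± 0.11 from 12 to 24 h and -2.33 ± 0.11 from 24 to 48 h, each called (adjusted p between 6.35e-14 and 1.61e-09). At 48 h of light all 3 arrays were below the median of their array, at 0.124% of the dry seed mean.

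OLEO3, the other oleosin gene, took a different course. It had 537, 579 and 613 fresh from harvest, then 702, 569 and 649.7 in dry seed, which overlapped. At 1, 12 and 48 h of stratification the arrays had 538, 502 and 585, then 447, 393 and 451, then 166, 182 and 165. The 3 groups were separate from each other, and the last fall was -1.25 ± 0.14 (adjusted p = 8.18e-08).

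In light no step of OLEO3 was called until 24 h. Arrays read 227, 198 and 199.96 at 1 h, 179.9, 235 and 216 at 6 h, 147, 152 and 237 at 12 h, and 275, 221 and 254 at 24 h. The arrays of 1 h were all above those of 48 h of stratification (0.26 ± 0.14, adjusted p = 0.42), and from there to 24 h each group overlapped the next. Between 12 and 24 h the difference was 0.48 ± 0.14, with an adjusted p = 0.0101 but short of the size threshold, and the highest array at 12 h was above the lowest at 24 h. At 48 h of light OLEO3 fell to 65.1, 50.5 and 41.1, below every array of 24 h (-1.97 ± 0.14, adjusted p = 7.83e-11). Its final level was 8.16% of that of dry seed, and all 3 arrays were still above their array median.

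PAP85 had the brightest probe set of the 6 and the steepest course. Its 18 arrays up to 1 h of light read between 21106 and 24232. Dry seed had 22883, 23618 and 23236, 48 h of stratification 22612, 22315 and 22779, and 1 h of light 21106, 22843 and 21892. The 48 h arrays were all below those of dry seed, but by -0.04 ± 0.18 only (adjusted p = 0.848), or 97.1% of the dry seed mean. When the fit held only 12 and 48 h of stratification, the difference of -0.08 between them had an adjusted p = 0.0304 against 0.87 with all arrays, still far from the size threshold.

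PAP85 was at rank 5 or 6 from the top of every array in this stretch, where array maxima ran from 27890 to 32818. Values in that range also repeat exactly between arrays. Of all values of at least 22000, 7.69% were found again on another array for the same probe set, against 0.0151% of values from 50 to 1000. Of the PAP85 arrays, 4 carried such a repeat, 1 of fresh seed, 2 of dry seed and 1 of seed stratified for 12 h. Whether the intensity scale is compressed there, so that a smaller loss of PAP85 before 6 h of light would not show, was not tested.

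From 6 h of light on PAP85 fell at each step. It had 6505, 7646 and 6826 at 6 h, 752, 408 and 690.4 at 12 h, 136, 259 and 136 at 24 h, and 8.92, 10.4 and 14.2 at 48 h. None of these groups overlapped. With 16 added, the step from 6 to 12 h, -3.51 ± 0.18 (adjusted p = 5.89e-13), was the largest between neighbouring groups for any of the 6 genes. The mean at 12 h was 11.3-fold lower than at 6 h. By mean intensity the step from 24 to 48 h was larger, 15.8-fold, but it was -2.77 ± 0.18 with 16 added. The final mean of 11.2 ± 2.75 (SD, n = 3) was 0.0481% of that of dry seed and lay below the median of each array.

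AT1G03890 was lost early. In fresh, dry and 1 h stratified seed its arrays read 1804, 1575 and 1922, then 1404, 1819 and 2024, then 1766, 2131 and 1951. These groups overlapped. At 12 h of stratification it had 1625, 1496 and 1244, below all 3 arrays of 1 h by -0.42 ± 0.11 (adjusted p = 0.00887), which did not reach the size threshold. At 48 h it fell to 241, 226 and 223, or 13.2% of dry seed (-2.57 ± 0.11 from 12 h, adjusted p = 6.56e-15).

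In light AT1G03890 had 183, 203 and 214 at 1 h, all below 48 h of stratification but not past the threshold (-0.19 ± 0.11, adjusted p = 0.491). It fell at 6 h to 29.8, 36.4 and 33.5 (-2.13 ± 0.11, adjusted p = 6.61e-13). At 12 h it had 11.2, 7.75 and 13.4, 3.08-fold below the 6 h mean. That difference was -0.88 ± 0.11 after the addition of 16, and it was -1.56 and called with a pseudocount of 1. The arrays of 24 h, at 5.28, 4.76 and 4.71, and of 48 h, at 5.18, 5.46 and 4.95, overlapped. From 12 h of light on all were below the median of their array, where little room is left to measure a further fall.

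AT4G36700 took a course much like that of AT1G03890. Arrays read 1962, 1769 and 2142 in seed fresh from harvest, 1564, 1850.2 and 2247 in dry seed and 2427, 2623 and 2960.5 after 1 h of stratification. All 3 arrays of 1 h lay above those of dry seed, by 0.51 ± 0.19, but the adjusted p = 0.0723. At 12 h there were 2367, 1788 and 2049, and at 48 h 421, 429 and 352, a fall of -2.32 ± 0.19 (adjusted p = 3.90e-10).

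The first hour of light left AT4G36700 at 412, 471 and 435, overlapping 48 h of stratification. It had 89.8, 128 and 80.6 at 6 h and 42.5, 20.0 and 42.1 at 12 h, falls of -2.00 ± 0.19 and -1.20 ± 0.19, both called. The second was uncalled without replicate 2 of 12 h, the lowest array of that group (-0.96), and with a pseudocount of 64 (-0.72). At 24 h the arrays, at 30.2, 40.8 and 43.5, overlapped those of 12 h, and at 48 h they had 20.4, 11.9 and 7.52. That last difference, -0.90 ± 0.19 (adjusted p = 4.51e-04), missed the size threshold. It was -1.54 and called with a pseudocount of 1. It was also called when replicate 1 of either 24 h (-1.01) or 48 h of light (-1.07) was left out.

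AT2G18540 was the only one of the 6 called higher at any step. Dry seed had 132, 191 and 312, a wide spread with a coefficient of variation of 43.5%, which took in all of fresh seed at 255, 189.8 and 278. After 1 h of stratification the arrays had 605, 537 and 676, all above dry seed (1.52 ± 0.22, adjusted p = 1.26e-04), a 2.86-fold higher mean. The difference ran from 1.25 to 1.82 with 1 array of either group left out, and with only these groups in the fit it had an adjusted p = 0.136.

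At 12 h of stratification AT2G18540 was lower again, at 295, 318 and 241, which did not overlap 1 h (-1.05 ± 0.22, adjusted p = 0.00121). This call rests on single arrays: it was -0.97 without replicate 3 of 1 h and -0.94 without replicate 3 of 12 h, both under the size threshold. The end of stratification had 105, 86.7 and 72.9. The first hour of light, with 96.0, 136 and 90.8, overlapped it, and 6 h had 21.4, 14.4 and 13.3. The falls to 48 h of stratification (-1.53 ± 0.22) and, in light, to 6 h (-1.93 ± 0.22) were called. Later arrays ranged from 6.95 to 21.8 in groups that overlapped, and at 24 and 48 h of light all 6 were below their array medians.

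**Figure D2:**
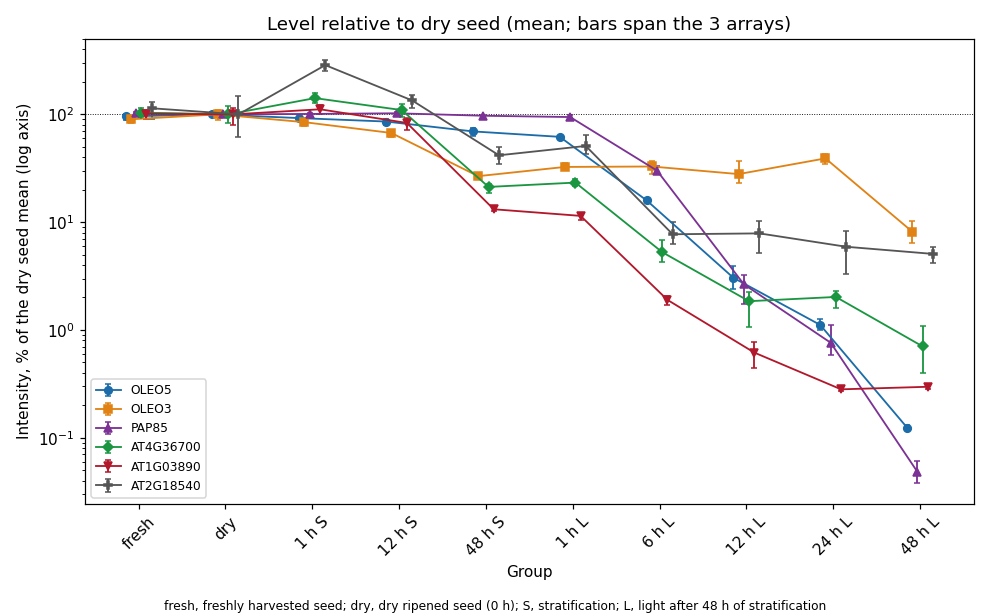
Mean intensity of each gene as a percentage of its own dry seed mean (log axis) over the 10 groups, with bars from the lowest to the highest of the 3 arrays. At 48 h of stratification PAP85 stands at 97.1% and AT1G03890 at 13.2%, and at 48 h of light PAP85 at 0.0481% and OLEO3 at 8.16%.

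Set beside all probe sets, the steps differed in how many members passed. Between dry and freshly harvested seed limma called 0 of 6 genes, while 0.321% of all probe sets were called lower. By unadjusted p under 0.05 also 0 of 6 passed, a count for which no share of all probe sets is given. The members' differences ran from -0.24 to 0.15. AT2G18540, with the widest difference, had 212 ± 92.0 in dry seed, against 241 ± 45.9 in fresh seed (SD, n = 3).

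At 1 h of stratification 1 of 6, AT2G18540, was called higher than dry seed and 0 lower, where 0.361% of all probe sets were called higher and 0.154% lower. At 12 h the same gene was the 1 of 6 called lower than at 1 h (0.888% of all). At 48 h against 12 h of stratification 4 of 6 were lower, OLEO3, AT1G03890, AT4G36700 and AT2G18540, against 8.35% of all. The members' median difference there was -1.39, and that of all probe sets -0.01. OLEO5 passed on adjusted p alone (-0.31 ± 0.11, adjusted p = 0.0323).

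By limma the first hour of light called none of the 6 lower than at 48 h of stratification. Of all probe sets 0.22% were called lower. None of the 6 had an unadjusted p under 0.05, a count for which no share of all probe sets is given. The members' differences ran from -0.19 to 0.26. At 6 h, 5 of 6 were lower than at 1 h, all but OLEO3, with 4.39% of all probe sets lower. OLEO3 differed by 0.01 ± 0.14. The 5 falls ran from -2.13 for AT1G03890 to -1.65 for PAP85, while by mean intensity the 6 h level was 3.14-fold lower for PAP85 and 6.59-fold lower for AT2G18540. AT2G18540 is dim at 6 h, and its fall of -1.93 became -1.09 with a pseudocount of 64.

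Later steps parted the genes again. At 12 h of light 3 of 6, OLEO5, PAP85 and AT4G36700, were lower than at 6 h, and 1.59% of all probe sets were. OLEO5 and PAP85 were the 2 of 6 lower at 24 h than at 12 h, where 2.3% of all were lower. At 48 h, 3 of 6, both oleosin genes and PAP85, were lower than at 24 h, beside 3.04% of all. The steps are not of equal length, so these differences are not rates.

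**Figure D3:**
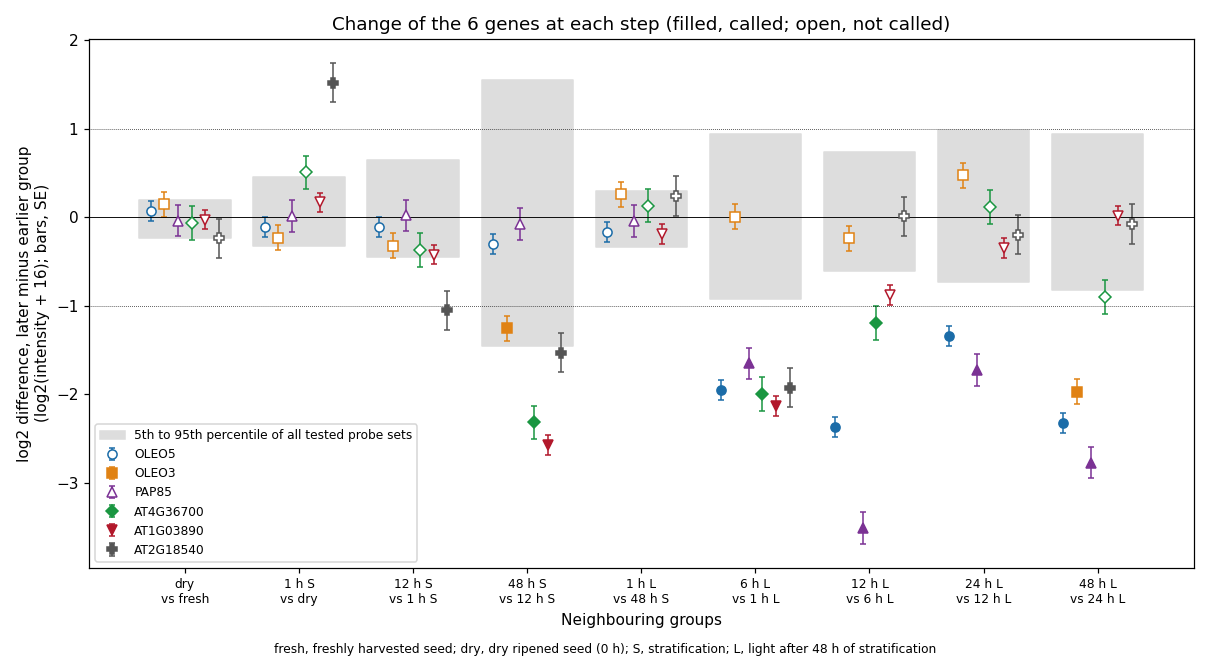
Log2 difference (later minus earlier group, on log2(intensity + 16), bars show the standard error) of the 6 genes at each of the 9 steps between neighbouring groups. Filled symbols were called and open ones not, dotted lines mark the size threshold of 1, and grey bars span the 5th to 95th percentile of all tested probe sets. The most calls are at the steps to 48 h of stratification (4) and 6 h of light (5), while the steps to dry seed and to 1 h of light hold none.

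Over stratification as a whole 4 of 6 genes were lower at 48 h than in dry seed, beside 8.23% of all probe sets. The differences were -2.83 ± 0.11 for AT1G03890, -2.18 ± 0.19 for AT4G36700, -1.81 ± 0.14 for OLEO3 and -1.06 ± 0.22 for AT2G18540. The last of these lost its call with a pseudocount of 64 (-0.81), and also when replicate 3 of either dry seed (-0.76) or 48 h (-0.95) was left out. Over the light period all 6 were lower at 48 h of light than at 48 h of stratification, and 16.5% of all probe sets were. PAP85 had the largest difference, -9.70 ± 0.18, then OLEO5 with -8.15 ± 0.11, and OLEO3 the smallest, -1.47 ± 0.14. Apart from OLEO3, most final arrays were below their array median, so these sizes depend on the starting level and on the 16 added.

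From dry seed to 48 h of light all 6 genes were lower as well, against 15.4% of all probe sets. The arrays of these groups did not overlap for any of the 6. How many of all probe sets share that was not counted. The members' median was -6.20, where the median of all probe sets was -0.05 and their 5th percentile -2.55. This comparison shares arrays with both of the preceding ones. OLEO3 was 12.3-fold lower by mean intensity. For the other genes at least 2 of the 3 final arrays were below their array median, so their final shares of dry seed include whatever background the intensities retain, which was not tested, and their order was not read.

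Ordered by level, groups next to each other often overlapped, although the ends of such a run could lie apart. For OLEO5 the 4 groups from freshly harvested seed to 12 h of stratification overlapped in sequence of level. Dry seed (12859 to 13921) still lay wholly above 1 and 12 h of stratification. The groups of 48 h of stratification and 1 h of light overlapped too, and all later groups stood apart. In PAP85 the first 4 groups overlapped in the same way, and so did 48 h of stratification and 1 h of light. OLEO3 had 5 groups without a gap, from 24 h of light down through 6, 1 and 12 h of light to 48 h of stratification. The ends of that run did not overlap, with 221 to 275 at 24 h of light and 165 to 182 at 48 h of stratification. For AT2G18540 the groups of 6, 12, 24 and 48 h of light overlapped in sequence of level. Still, 48 h of light (8.80 to 12.6) lay wholly below 6 h (13.3 to 21.4), at a dim level.

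Over the 10 group means the 6 courses were compared by Pearson correlation of log2 intensity, as a description, since all genes share the same arrays. OLEO5 and PAP85 were alike (r = 0.994), as were AT4G36700 and AT1G03890 (r = 0.993), and AT2G18540 came near these (r = 0.971 with AT4G36700 and 0.970 with AT1G03890). OLEO3 correlated at 0.739 to 0.852 with the others, and at 0.777 with its fellow oleosin gene OLEO5.

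Among other named genes whose group means spanned at least 2 on the log2 scale, the nearest to OLEO5 were AT2G28490 (r = 0.998), AT1G27300, the glutaredoxin gene GRXC1 and AT2G38450. Nearest to PAP85 were AT2G15010 (r = 0.995), AT2G28490, AT2G38450 and AT1G47540. AT1G03890 was most like AT3G15280 (r = 0.999), AT2G33520, AT5G01670 and AT5G43770. AT4G36700 came closest to OCT4 (r = 0.996), AT1G72100, AT2G19930 and AT5G01670. For AT2G18540 they were LEA25 (AT2G42560, r = 0.990), AT4G28300, AT3G52220 and AT3G27350. OLEO3 had the least close companions, AT4G14385 (r = 0.963), DI19, AT5G25450 and AT3G02480.

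The gene most like OLEO5 was itself on the list of storage and oil body genes. Of 22 genes on that list, 7 had a probe set that names them: the 6 members and AT2G28490. AT2G28490 had 12608 ± 1443 in dry seed, 8765 ± 310.2 at 48 h of stratification, 2399 ± 344 at 6 h of light, 301 ± 116 at 12 h and 12.4 ± 4.40 at 48 h (SD, n = 3). It fell at 6 h of light against 1 h by -1.66 ± 0.17 (adjusted p = 5.36e-08), and its difference over stratification, -0.52 ± 0.17, was not called. The cruciferin genes CRA1, CRU2 and CRC, the 2S albumin genes of the list and the oleosin genes OLEO1, OLEO2 and OLEO4 have no probe set named for them here and were not followed.

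Genes for the handling of storage proteins showed several courses. Of 17 on the list 8 were named. Of these 8, 2 were lower and 2 higher over the light period, where 16.5% of all probe sets were lower and 15.2% higher, and their median difference was 0.14 against -0.02 for all. Among the 8, ALPHA-VPE, MAG2 and PASPA3 stayed dim, with group means of at most 5.98, 13.2 and 16.2. With 16 added, such genes can hardly reach the size threshold, which pulls the counts and the median toward no change. From dry seed to 48 h of stratification 2 of the 8 were lower, beside 8.23% of all. BETA-VPE, the vacuolar processing enzyme best known from seeds, where such proteases cut storage protein precursors, had 10318 ± 179 in dry seed, 6014 ± 488 at 48 h of stratification, 3156 ± 397 at 6 h of light and 125 ± 19.8 at 48 h (SD, n = 3). It fell by -5.43 ± 0.09 over the light period (adjusted p = 2.70e-23).

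DELTA-VPE, known from the developing seed coat, was below the array medians before light, at 5.30 ± 0.120 after 48 h of stratification. It rose at 6 h of light to 79.2 ± 7.14, against 5.71 ± 0.358 at 1 h (2.13 ± 0.07, adjusted p = 3.48e-16), stood at 932 ± 56.5 at 24 h and fell to 72.6 ± 7.96 at 48 h (SD, n = 3). GAMMA-VPE, the form of vegetative organs, was lower at 48 h of stratification (90.3 ± 6.60) than in dry seed (367 ± 11.8) and rose to 244 ± 21.0 at 48 h of light (1.29 ± 0.08 over the light period). APA1, an aspartic proteinase gene, fell over the same period, with 1904 ± 129 at 48 h of light, against 4085 ± 253 at 48 h of stratification.

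**Figure D4:**
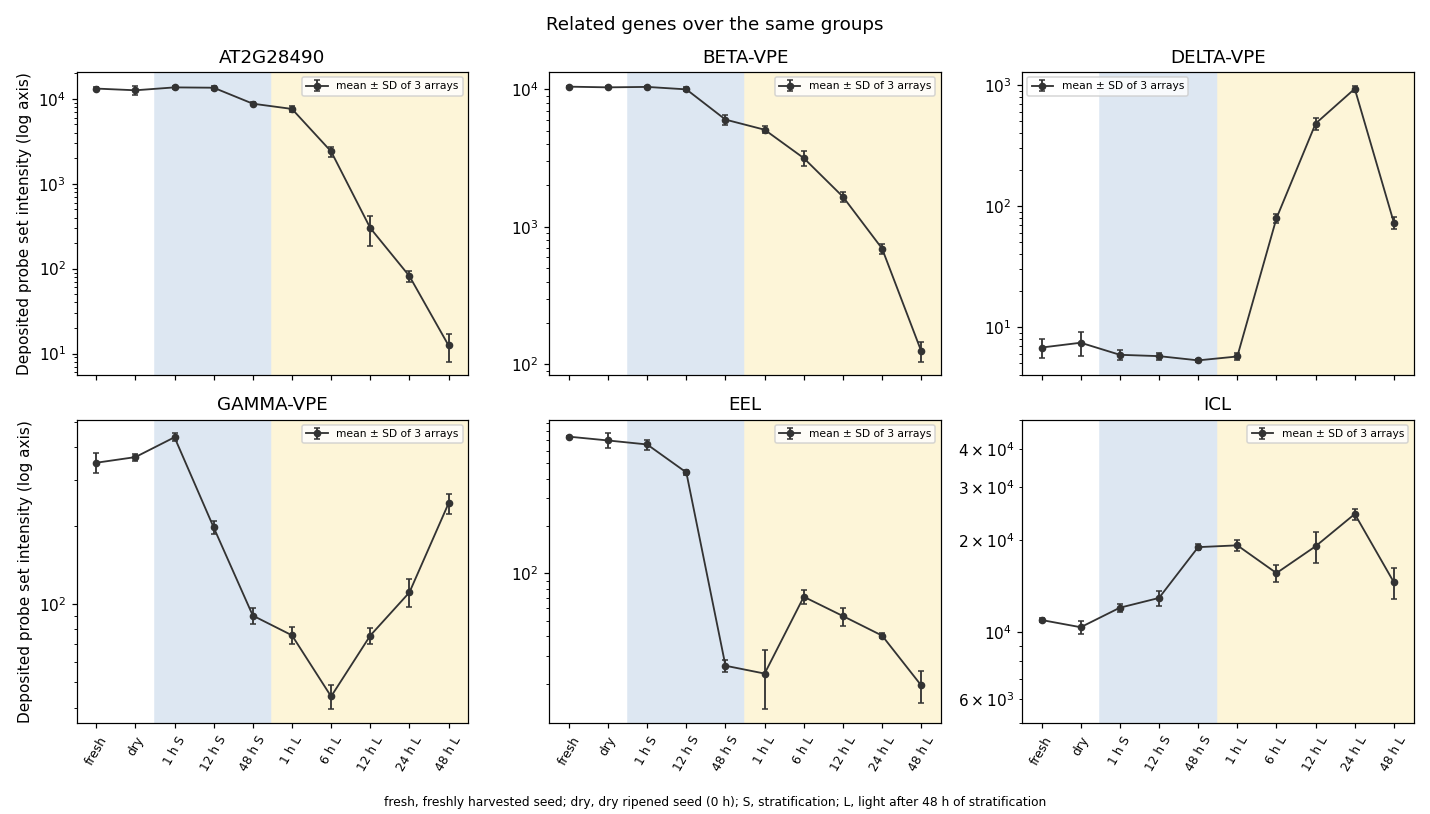
Mean deposited intensity (log axis, bars show SD, n = 3) of 6 other genes of the lists over the same 10 groups. AT2G28490 and BETA-VPE decline through the light period, DELTA-VPE peaks at 932 at 24 h of light, GAMMA-VPE has its lowest mean at 6 h of light, EEL drops at 48 h of stratification, and ICL stays between 10346 and 24426.

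Genes of oil breakdown were followed beside the oleosins. Of 21 on the list 5 were named, and limma called 0 of them lower over stratification, beside 8.23% of all probe sets, with a median of 0.47. By adjusted p alone 4 of the 5 passed there, 3 of them higher and AIM1 lower, all short of the size threshold. The 8.23% counts both criteria, and the share of all probe sets on adjusted p alone is not given, so this count was not read. Of the 5, 3 were lower over the light period, beside 16.5% of all, with a median of -1.20. SDP1, the lipase that begins the breakdown of seed oil, had 106 ± 12.1 at 48 h of light, against 598 ± 56.2 at 48 h of stratification (-2.34 ± 0.14, adjusted p = 1.36e-12). PUX10, an oil body protein that takes part in the removal of oleosins, had 193 ± 20.1 at 48 h of light, against 483 ± 43.5. ICL, the isocitrate lyase gene of the glyoxylate cycle, was not called, with 14540.0 ± 1679 and 18995 ± 471 in the same groups (SD, n = 3).

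Of 20 regulators of seed maturation only BZIP53 and EEL, both bZIP transcription factor genes, were named. EEL fell at 48 h of stratification to 26.0 ± 2.17, against 438 ± 18.7 at 12 h (-3.43 ± 0.13, adjusted p = 3.79e-16), the step at which 4 of the 6 storage genes fell. It rose at 6 h of light, with 71.2 ± 7.12, against 23.2 ± 9.41 at 1 h (1.18 ± 0.13, adjusted p = 8.30e-08), where 5 of the 6 storage genes fell. BZIP53 was higher at 12 h of stratification, 975 ± 35.7, than at 1 h, 256 ± 21.1, and fell at 48 h to 315 ± 20.2 (SD, n = 3). Of 12 seed maturation LEA genes 6 were named. Of these, 4 were lower at 48 h than at 12 h of stratification, beside 8.35% of all probe sets, and 6 were lower at 6 h than at 1 h of light, beside 4.39% of all.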

How the data were processed

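Per the labels' protocols, 400 ng of total RNA per sample was biotin-labelled and hybridized. What the authors deposited is 1 linear intensity per probe set and array. The tools listed in the submitters' processing notes are MAS5, RMA and Partek, without roles or versions. The treatment protocol gives 14 days of drying and the design text 15.

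Of 22810 probe sets 64 controls were set aside. The annotation names exactly 1 gene for 13513 probe sets, several for 503 and none for 8730. Loci and symbols were taken from the RefSeq gene table of assembly TAIR10.1, in which 13436 of the 13513 were found. To each deposited intensity 16 was added before log2 was taken. All 30 arrays entered 1 limma fit (version 3.58.1, lmFit and eBayes, R 4.3.3) with a mean for each group and 20 residual degrees of freedom, and 12 comparisons were made, the 9 neighbouring pairs of groups and 3 longer ones. P-values were adjusted by Benjamini-Hochberg over all 22746 probe sets. The procedure was tested on simulated data. The named genes are the 6 members, for each the 4 most similar courses, and genes of 8 lists. Members and lists were chosen with earlier results of these data known. Arrays with the same replicate number did not deviate together on average: their mean correlation was -0.01 over 135 pairs, of which 20 were over 0.1. Single pairs ran from -0.27 to 0.30, and the mean cannot show whether some groups were paired. Alternatives were pseudocounts of 1 and 64, quantile normalization, median centring, a filter on dim probe sets, fits of the compared groups alone, a replicate block, a variance trend and leaving out each array. Figures were drawn with Python 3.11.15 and matplotlib 3.10.9. No sequences were printed, and probe sequences were not used here, so cross-hybridization between related storage genes was not tested.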

Additional observations from a re-analysis of the deposited data

How the results depend on the processing

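Counts of called genes were recomputed 168 times over 12 comparisons and stayed within 1.5 times the reported count in all but 4. Of the 6 genes, 0 were called between dry seed and 1 h of stratification with only these groups in the fit. From 1 to 12 h of stratification 0 were called with a pseudocount of 64, and 0 to 1 when arrays were left out, 0 without replicate 3 of 1 h or replicate 3 of 12 h. All of these concern AT2G18540. Of 1008 single-gene differences 9 lost and 4 gained a call, no called one changed sign, and 22 uncalled ones did. With the replicate block the counts of called genes were 4 at 48 h against 12 h of stratification and 6 over the light period, as without it, and it changed no call. A pseudocount of 64 made 7 called differences smaller by over 1.5 times, among them PAP85 from 24 to 48 h of light (-1.64) and AT2G18540 over the light period (-1.02). Median centring moved the median of all probe sets to -0.24 over the light period and to -0.36 from dry seed to 48 h of light, from -0.02 and -0.05. All 6 members were kept by the filter on dim probe sets. Intensities below the array median limit how far the final levels can be followed.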

Other observations

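The 12 genes that flank the 6 members on the chromosomes, by the order of the TAIR10.1 gene table, were looked at for shared position. AT1G03890 lies next to the cruciferin gene CRU2, for which no probe set is named here. Of the flanking genes 4 had a probe set of their own, and 3 of their 48 comparisons were called. Of all probe sets, between 0.154% and 16.5% were called lower in a comparison, so this count was not read as a result about position. CEG, next to PAP85, was dim throughout, with group means between 5.16 and 6.85. AT5G51220, next to OLEO3, was higher at 48 h of stratification (157) than at 12 h (49.5), the step at which OLEO3 was lower. ATU2AF65A, a splicing factor gene next to AT4G36700, was higher at 48 h of stratification (843) than in dry seed (273) and lower at 48 h of light (197) than at 48 h of stratification, where AT4G36700 was lower in both.

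In dry seed replicate 1 had the lowest and replicate 3 the highest intensity for AT4G36700, AT1G03890 and AT2G18540, while replicate 1 was the highest for OLEO3 and the lowest for OLEO5 and PAP85. Dry seed was also the group with the lowest correlation between replicates, 0.985. M17, of the seed maturation genes, also stayed high through 1 h of light and fell from 6 h on. It had 18528 ± 681 at 48 h of stratification, 6757 ± 674 at 6 h of light, 438 ± 92.1 at 12 h and 5.82 ± 0.157 at 48 h (SD, n = 3). At 24 h of light M17 had 21.4 ± 19.6, against 177 ± 71.0 for PAP85. It was not among the 4 courses most similar to that of PAP85.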
